A study of Mus musculus with 3 samples.

Results

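The Toll-like receptors Tlr1, Tlr2, Tlr3, Tlr4, Tlr7, Tlr9 and Tlr13, the co-receptor Cd14, the adaptor Myd88 and Ly86 were examined across the cell types of mouse glioblastomas. These 10 genes were taken by name from the 50262 genes of the deposited count table, and all 10 were found. Single cells were profiled by inDrop, a droplet method in which every captured mRNA gets its own barcode, a unique molecular identifier (UMI). Tumors arose in adult mice of mixed background carrying conditional wild-type human EGFR, loss of Cdkn2a (Cdkn2A-/-) and a conditional luciferase reporter, among other alleles, after stereotactic injection of a lentivirus encoding Cre. All groups shared the same alleles, and normal brain was not analysed here. The groups were 3 tumor stages (early, medium and large), each represented by 1 tumor sample, and 2 sorts of viable cells, positive or negative for CD45, the common leukocyte antigen. Cells of 2 samples had been pooled where a single sample gave too few, which the study states for early tumors. Each stage and sort was held by 4 libraries spread over 3 sequencing runs. Because stage and animal coincide, a difference between stages and a difference between animals cannot be told apart.

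Toll-like receptors bind conserved molecules of microbes or damaged cells. Tlr2 pairs with Tlr1 to detect lipoproteins, and Tlr4 detects lipopolysaccharide with help from Cd14, which hands ligand to the receptor. Tlr3, Tlr7, Tlr9 and Tlr13 sit in endosomes and detect double-stranded RNA, single-stranded RNA, unmethylated CpG DNA and bacterial ribosomal RNA, respectively. Ly86 encodes MD-1, the partner of the Toll-like receptor homolog Cd180. Myd88 carries the signal of all of these Toll-like receptors except Tlr3, which uses Ticam1. In the brain, microglia are the resident macrophages and are known to express many of these receptors.

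The CD45+ sort held 5091, 3983 and 2111 used cells in the early, medium and large samples, with 10808099, 9729273 and 5381839 UMIs. The CD45- sort held 2725, 1603 and 2268 cells with 8100096, 6559876 and 10589403 UMIs. Libraries of the same sample and sort shared a median of 4.94% (highest 25.7%) of the cell barcodes of the smaller library, against 0.807% (highest 5.88%) in other pairs, and 2114 used cells carried such a shared barcode. Leaving these cells out changed no call on a member. Levels are given as CPM, the UMIs of a gene scaled to a total of 1000000 UMIs in its class and tumor sample, and intervals are exact 95% Poisson intervals that cover counting error only.

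Cells were clustered without the members or the pathway genes described below, and clusters were called "-like" from marker genes. Of CD45+ cells, microglia-like cells made up 80.2%, 20.6% and 47.2% in the early, medium and large samples (4084, 819 and 996 cells). The 10 microglia markers, P2ry12 and Tmem119 among them, summed to between 15536 and 18544 CPM there. The same 10 markers summed to between 1177 and 2770 in macrophage or monocyte-like cells, between 642 and 1648 in dendritic-like cells, 409 in B lineage-like cells and between 686 and 834 in T cell-like cells. T cells should lack these transcripts, and the part of RNA from microglia in the values of other classes was not tested. Macrophage or monocyte-like cells numbered 59, 352 and 381, dendritic-like cells 66, 155 and 47, and B lineage-like cells 12, 201 and 14. The leading clusters of a class differed between samples. Macrophage or monocyte-like cells were mostly of a Ccr2-led cluster in the early (66.1%), a Cxcl9-led cluster in the medium (65.9%) and a Rnase2a- and Arg1-led cluster in the large sample (94.2%). Dendritic-like cells were mostly Mgl2-led in the early (71.2%) and large (59.6%) samples and Xcr1-led in the medium sample (61.3%). Plasma cell genes, Jchain and Mzb1 among them, led 91.0% of the B lineage-like cells of the medium sample, and the others were led by genes of B cell precursors such as Vpreb3. A further 176, 1580 and 399 CD45+ cells stayed in unnamed clusters, and those with the class II gene H2-Eb1 among their leading genes made up 1.36%, 24.4% and 2.65% of the CD45+ cells. Some of these clusters with H2-Eb1 were themselves led by Cxcl13. Unnamed clusters without it included those led by Spp1 and Lpl and a further one led by Cxcl13 and Cst7. Whether unnamed cells include microglia was not tested.

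On GRCm38, with GENCODE annotation, 9 of the genes span chr5:64924679-64933563 (Tlr1), chr3:83836272-83841767 (Tlr2), chr8:45395665-45411080 (Tlr3), chr4:66827584-66930284 (Tlr4), chrX:167304929-167330558 (Tlr7), chr9:106222598-106226883 (Tlr9), chrX:106143204-106160493 (Tlr13), chr9:119335934-119341411 (Myd88) and chr13:37345208-37419036 (Ly86). RefSeq promoters on GRCm38 (the 250 bases before and 50 after a start site) were matched for 7 of the 10 members. They were searched on both strands for the core of the PU.1 site (GAGGAA), a factor that myeloid cells need, for the interferon-stimulated response element (GAAA, 2 bases of any kind, GAAA) and for an NF-kB site (GGG, 3 bases of any kind, TTCC), over the 250 upstream bases. The upstream bases of Tlr13 and Ly86 that lie outside annotated exons are shown. These members stood higher in microglia-like cells than in both dendritic-like and B lineage-like cells. So did Tlr3, Tlr7 and Cd14, but the Tlr3 window began within an annotated exon, and Tlr7 and Cd14 had no promoter entry. Capitals mark the PU.1 core.
Tlr13 (chrX:106143025-106143203, plus strand): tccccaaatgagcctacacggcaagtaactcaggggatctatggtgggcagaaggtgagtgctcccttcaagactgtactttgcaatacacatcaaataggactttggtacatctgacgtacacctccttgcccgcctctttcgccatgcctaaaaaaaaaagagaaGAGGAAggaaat
Ly86 (chr13:37345095-37345207, plus strand): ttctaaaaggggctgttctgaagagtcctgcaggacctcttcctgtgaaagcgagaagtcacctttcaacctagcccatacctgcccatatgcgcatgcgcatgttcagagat
The PU.1 core occurred in the window of Tlr13, as in those of Tlr9 and 1 of the 2 Tlr1 entries, and in 23.3% of all 32851 promoters. The NF-kB letters occurred in the windows of Tlr2 and Tlr3 and in 4.65% of all promoters, and the response element in that of Myd88 and in 2.98%. None of the 3 motifs was found in the window of Ly86. These matches describe letters and not bound sites.

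The first comparison asked which sort held the members. All 9 members that could be tested were higher in the CD45+ sort (edgeR quasi-likelihood test on summed counts, paired by tumor sample, adjusted over all genes), against 20.3% of all 19488 genes tested. Without a filter on low counts Ly86 was just short of the threshold (edgeR adjusted p = 0.0503). Cd14 summed to 1128, 691 and 783 CPM in the early, medium and large CD45+ cells and to 87.4, 18.9 and 4.91 in the CD45- cells. Its log2 fold change was 5.70 ± 0.76 (SE, adjusted p = 0.0011), and the sorts did not overlap. Ly86 stood at 1568, 1505 and 1532 against 146, 129 and 12.2 CPM (log2 fold change 4.88 ± 0.80, adjusted p = 0.0027). The smallest differences were those of Tlr3 (2.39 ± 0.37, adjusted p = 0.0021), Tlr4 (2.41 ± 0.38, adjusted p = 0.0018) and Myd88 (2.77 ± 0.22, adjusted p = 1.1e-04). Tlr3 stood at 69.5, 23.1 and 32.3 CPM in CD45+ and at 13, 12.7 and 4.63 in CD45- cells. Tlr9 had 23 UMIs in all CD45+ and 1 in all CD45- cells and was not tested. In sums of a sort, more cells of a type and more RNA per cell cannot be told apart.

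The CD45- sort also held microglia-like cells. They numbered 240, 73 and 32. Their Ly86 levels were 2006, 2665 and 1652 CPM, against 1798, 2655 and 2093 in CD45+ microglia-like cells. Cd14 stood at 1185 (1095 to 1280), 495 (393 to 615) and 637 (459 to 861) there. In CD45+ microglia-like cells it stood at 1046 (1024 to 1068), 901 (854 to 950) and 852 (812 to 893). By these intervals Cd14 was higher in the CD45- cells of the early sample and lower in those of the medium sample. Tlr2 stood at 123, 104 and 45.5, against 160, 133 and 151, the large CD45- value resting on 3 UMIs. Tlr3 was also read in astrocyte-like cells, at 90.2 (interval 52.6 to 144), 90.8 (50.8 to 150) and 143 (52.5 to 311) CPM, from 17, 15 and 6 UMIs in 11, 7 and 3 cells. The intervals treat UMIs of 1 cell as independent. In the same cells Ly86 stood at 21.2, 60.5 and 0 CPM and Cd14 at 26.5, 0 and 0. Tlr4 levels in fibroblast-like and astrocyte-like cells rested on few cells. In fibroblast-like cells Tlr4 stood at 15.3, 60.3 and 34.1 CPM, from 5, 18 and 8 UMIs in 4, 5 and 3 cells. In astrocyte-like cells of the medium sample it stood at 54.5 CPM, from 9 UMIs in 2 cells. No counting interval is given for these levels, since a few cells hold all the UMIs. In 2730 CD45- oligodendrocyte-like cells, no UMI of Tlr2, Tlr7 or Tlr13 was counted, and the exact interval of each reached 0.470 CPM.

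**Figure D1:**
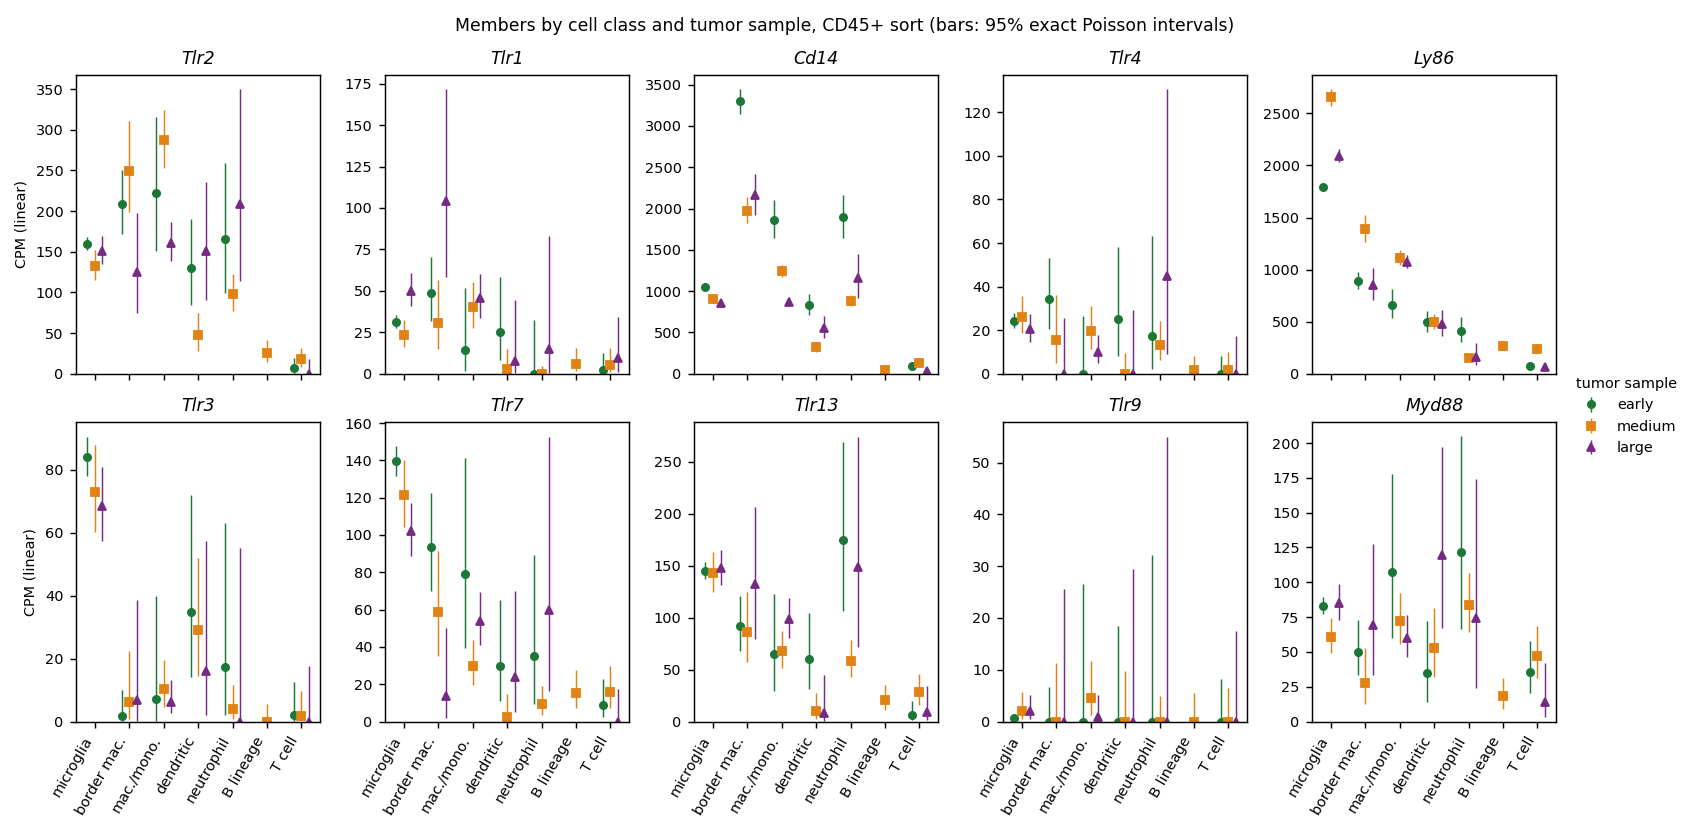
CPM (linear axes) of each member in 7 classes of the CD45+ sort, with 1 point per tumor sample and bars for exact 95% Poisson intervals. Tlr3, Tlr7 and Ly86 stood highest in microglia-like cells in every tumor sample among the classes drawn, Cd14 in border or perivascular macrophage-like cells, and Tlr9 was near 0 throughout.

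The main comparison set microglia-like cells against macrophages or monocytes, dendritic cells and cells of the B lineage within the CD45+ sort. Counts were summed per class and tumor sample and fitted together with edgeR, with tumor sample as a block. Each stage is 1 sample, so p-values measure how differences between classes varied over 3 tumor samples of different stage. The fit left 4 residual degrees of freedom. Against macrophage or monocyte-like cells, 3 of 9 tested members were higher in microglia-like cells and 0 were lower, where 8.55% of all 11963 genes tested were higher and 9.67% lower. Against dendritic-like cells, 5 of 9 were higher and 0 lower, against backgrounds of 11.2% and 11.1%. Against B lineage-like cells, 6 of 9 were higher and 0 lower, against 7.82% and 7.03%. At an unadjusted p under 0.05 in edgeR, 6, 6 and 8 of the 9 differed in either direction in the 3 comparisons, where 29.4%, 32.5% and 27.3% of all genes did. Only the medium sample held 20 or more B lineage-like cells, so that comparison rests on 1 sum with no replicate of its own. Its p-values assume that this sum varies as the other classes do, so fitted log2 fold changes against it are given below with no SE or p. When each cell was classed from its markers alone, without clusters, 2, 1 and 3 members were called in the 3 comparisons. Calls over all genes also fell in this setting against dendritic cells and the B lineage, as given in the closing section. The total against macrophages is not given, so the fall in these counts is no result about the members. Against dendritic-like cells only Tlr7 was then called, and Ly86 (0.64, edgeR adjusted p = 0.42) and Tlr13 (0.82, edgeR adjusted p = 0.18) were not. Against the B lineage, which then had a sum in each sample, Cd14 (1.21, edgeR adjusted p = 0.019), Tlr2 (1.03, edgeR adjusted p = 0.048) and Tlr7 (1.01, edgeR adjusted p = 0.049) were called, and Ly86 (1.24, edgeR adjusted p = 0.086), Tlr13 (1.15, edgeR adjusted p = 0.072) and Tlr3 (1.28, edgeR adjusted p = 0.10) were not.

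Tlr3, the endosomal receptor for double-stranded RNA, was the member with the largest difference between microglia and macrophages. Its level in microglia-like cells was 84.1, 73.0 and 68.5 CPM in the early, medium and large samples. In macrophage or monocyte-like cells it was 7.17, 10.3 and 6.37. The classes did not overlap in any sample, and the log2 fold change was 3.10 ± 0.43 (edgeR adjusted p = 3.1e-06). All 14 alternative settings called this difference, at log2 fold changes between 2.10 and 3.32. A Tlr3 UMI was found in 12.6% of microglia-like, 1.39% of macrophage or monocyte-like and 0.355% of T cell-like cells, and in 7.51%, 0.634% and 0.186% after thinning to 1000 UMIs per cell (median depths 1899, 2360.5 and 1808 UMIs). Gm45542 overlaps Tlr3 on the other strand, and use of strand in the counting is not given in the sources used here, so reads of the 2 cannot be told apart.

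In dendritic-like cells Tlr3 stood at 34.9, 29.0 and 15.9 CPM, again below every microglia-like value (log2 fold change 1.48 ± 0.43, edgeR adjusted p = 0.011). The dendritic clusters differed among themselves. The Xcr1-led cluster, which carries the markers of type 1 conventional dendritic cells, held 20 Tlr3 UMIs in 130 cells, or 58.1 CPM (35.5 to 89.8). The Mgl2-led cluster held none in 102 cells, where 3 counts would stand at 10.6 CPM. The call was lost, for a cause that was not tested, when the medium sample was left out (1.49, edgeR adjusted p = 0.11). It was also lost in 3 other settings, among them a coarser second round of clustering (1.20, edgeR adjusted p = 0.21). Over all 12 settings the adjusted p ran from 0.0066 to 0.39. In B lineage-like cells of the medium sample no Tlr3 UMI was counted among 664587 UMIs. The medium microglia-like level, 73.0 CPM (60.1 to 87.9), was 16.2-fold the floor of 3 counts in that sum. The exact interval of the B lineage value reached 5.55 CPM, so 16.2 is an estimate and not a lower limit. That gap holds for the medium sample alone. The 12 and 14 B lineage-like cells of the early and large samples, too few to enter the fit, held 3 Tlr3 UMIs in 2 cells among 80788 UMIs. Their level of 37.1 CPM had an interval of 7.66 to 108.5, which includes the microglia-like levels.

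Tlr3 was not confined to microglia. Plasmacytoid dendritic-like cells of the medium sample stood at 121 CPM (62.6 to 211, 12 UMIs in 8 of the 47 cells). An unnamed CD45+ cluster led by the interferon-induced genes Rsad2 and Ifit3 held 17 Tlr3 UMIs in 57 cells, or 129 CPM (75.2 to 207). By contrast, an unnamed cluster of 467 cells led by AC166110.3 and H2-Eb1 held none, where 3 counts would stand at 3.17 CPM. Border or perivascular macrophage-like cells, which carry Mrc1 and Cd163, were at 1.80, 6.16 and 6.95. These clusters were picked out after their values were seen. Within the microglia-like class, the 7 clusters ranged from 61.0 to 91.0 CPM, a narrower range than the gap to macrophages.

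**Figure D2:**
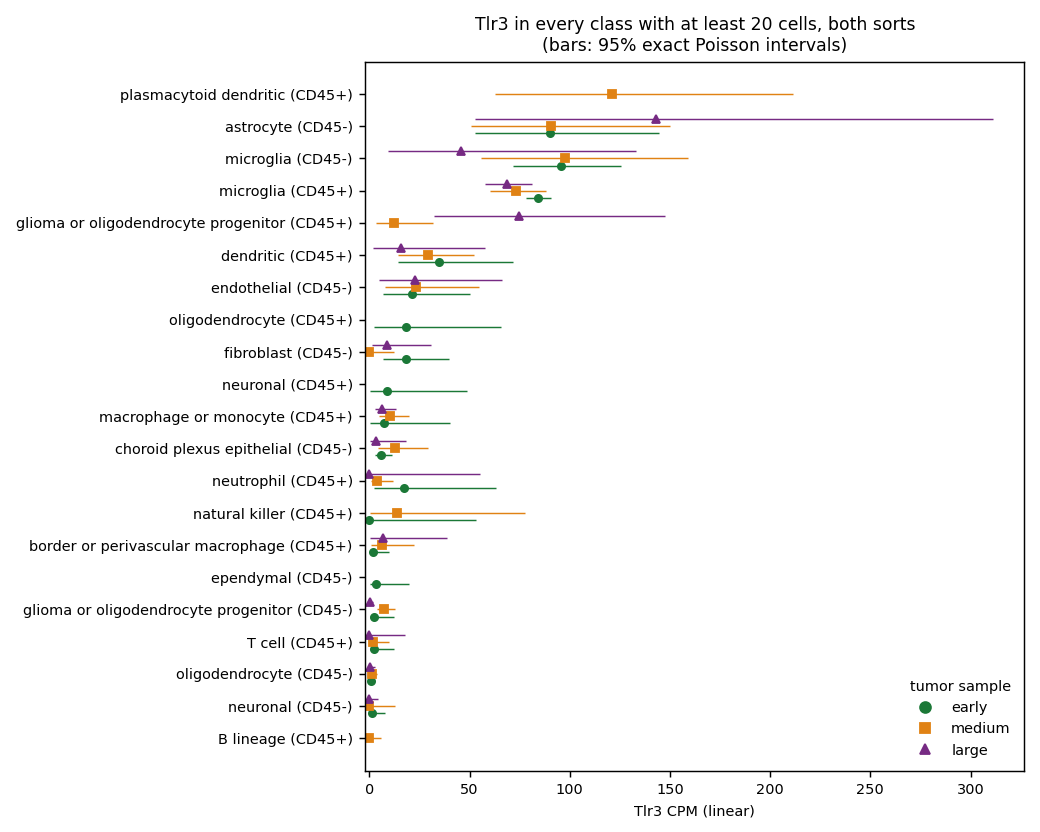
Tlr3 CPM (linear axis) in every class with at least 20 cells in a tumor sample, both sorts, with 1 point per tumor sample and bars for exact 95% Poisson intervals. Microglia-like, astrocyte-like and plasmacytoid dendritic-like cells stood at 45.5 or more in every sample drawn, while macrophage or monocyte-like cells stood between 6.37 and 10.3 and B lineage-like cells of the medium sample, the only one drawn for that class, at 0.

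Tlr7, the receptor for single-stranded RNA, was at 140, 121 and 102 CPM in microglia-like cells of the early, medium and large samples. In macrophage or monocyte-like cells it was at 78.9, 29.7 and 53.7, below microglia in each sample (log2 fold change 1.27 ± 0.35, edgeR adjusted p = 0.0087). Without the medium sample the difference was 0.84 and was not called (edgeR adjusted p = 0.24), and the other 13 settings called it (range of adjusted p over all 14, 2.0e-04 to 0.24). In dendritic-like cells Tlr7 was at 29.9, 2.64 and 23.9, a log2 fold change of 3.02 ± 0.49 in favor of microglia (edgeR adjusted p = 2.0e-05). No Tlr7 UMI was counted in the 130 Xcr1-led cells, whereas the Mgl2-led cells stood at 35.4 CPM. Plasmacytoid dendritic-like cells, a separate class, stood at 30.3 CPM (6.24 to 88.5) in the medium sample, from 3 UMIs among 47 cells. With the samples joined they stood at 95.4 (50.8 to 163), from 13 UMIs in 7 of the 61 cells. That interval, which treats UMIs of 1 cell as independent, includes the joined microglia-like level of 131. B lineage-like cells of the medium sample were at 15.0 (log2 fold change 2.25), close to the level of T cell-like cells of the same sample (15.8).

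Tlr13, the receptor for bacterial ribosomal RNA, hardly varied between samples in microglia-like cells, at 145, 143 and 147 CPM. Macrophage or monocyte-like cells stood at 64.6, 67.4 and 98.2, lower in each sample, but the log2 fold change of 0.82 ± 0.34 did not pass the threshold (edgeR adjusted p = 0.10). It was called in 6 of 14 alternative settings, at adjusted p from 8.5e-05 to 0.45 over all of them. Neutrophil-like cells overlapped with microglia-like cells, at 174, 58.4 and 149. Dendritic-like cells were lower, at 59.8, 10.6 and 7.96 (log2 fold change 2.53 ± 0.45, edgeR adjusted p = 1.5e-04). B lineage-like cells of the medium sample stood at 21.1 (11.5 to 35.3, log2 fold change 2.17). T cell-like cells of that sample stood at 28.1 (16.1 to 45.6), with overlapping intervals.

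Tlr9, the receptor for CpG DNA, was scarcely detected in any class. Microglia-like cells held 6, 3 and 4 UMIs in the early, medium and large samples, or 0.711, 1.96 and 1.98 CPM. B lineage-like cells of the medium sample held none (exact interval up to 5.55 CPM), and the 61 plasmacytoid dendritic-like cells held none either. Differences between classes in Tlr9 were not detectable at this depth.

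Among the members that act in surface recognition, Ly86 was called higher in microglia-like cells than in macrophages, and Cd14, Tlr1, Tlr2 and Tlr4 were not. It stood at 1798, 2655 and 2093 CPM in the early, medium and large samples. The values were 660, 1115 and 1073 in macrophage or monocyte-like cells and 493, 494 and 478 in dendritic-like cells. No microglia-like value overlapped with either class. The log2 fold changes were 1.19 ± 0.18 against macrophages (edgeR adjusted p = 1.2e-05) and 2.15 ± 0.19 against dendritic cells (edgeR adjusted p = 6.0e-10). Against the B lineage of the medium sample, at 268 CPM, it was 2.85. In T cell-like cells of the medium sample it was 240, so the B lineage value was close to that of a class that should lack the gene. An Ly86 UMI was found in 88.9% of microglia-like and 11.9% of T cell-like cells (76.7% and 7.79% after thinning).

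High Ly86 was shared with unnamed cells. CD45+ cells of unnamed clusters stood at 1935, 2087 and 1869 CPM, with 2 Cxcl13-led clusters at 3078 and 3086. In 1 setting the clusters with H2-Eb1 among their leading genes, some of them Cxcl13-led, were added to the macrophage or monocyte-like class. The log2 fold change of Ly86 then shrank to 0.47 ± 0.14 and was still called (edgeR adjusted p = 0.014). Adding these clusters to the microglia-like class instead was not run. With classes set from markers cell by cell the log2 fold change of Ly86 was 0.93 and was not called (edgeR adjusted p = 0.14). Of the 14 settings, 13 called Ly86, at adjusted p from 4.8e-10 to 0.14.

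Cd14 (chr18:36725067-36726798) had a different order. Border or perivascular macrophage-like cells were highest, at 3296, 1976 and 2161 CPM in the early, medium and large samples, above every value of every other named class compared. Macrophage or monocyte-like cells stood at 1865, 1240 and 872, neutrophil-like cells at 1892, 881 and 1163, and microglia-like cells at 1046, 901 and 852. Microglia-like cells were below macrophages in each sample, though by little in the large one, and the log2 fold change of -0.44 ± 0.19 was not called (edgeR adjusted p = 0.12). Without the large sample it was -0.60 and was called (edgeR adjusted p = 0.033), as in 1 more of the 14 settings (range of adjusted p over all, 0.033 to 0.40). Cd14 was higher in microglia-like than in dendritic-like cells (827, 319 and 549, log2 fold change 0.83 ± 0.20, edgeR adjusted p = 0.0034). That call was lost without the medium sample (0.45, edgeR adjusted p = 0.31), without the block (0.75, edgeR adjusted p = 0.092) and with classes from markers alone (0.04, edgeR adjusted p = 0.96). The Mgl2-led dendritic cluster stood at 1048 and the Xcr1-led cluster at 160. B lineage-like cells of the medium sample stood at 49.7 (log2 fold change 3.66) and T cell-like cells of that sample at 132.

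Tlr2, the lipoprotein receptor, was not highest in microglia-like cells either. It was at 160, 133 and 151 CPM in microglia-like cells and at 222, 287 and 161 in macrophage or monocyte-like cells of the early, medium and large samples. Macrophages were higher in each sample, but the log2 fold change of -0.62 ± 0.29 was not called (edgeR adjusted p = 0.15). Without the large sample it was -0.86 and called lower in microglia (edgeR adjusted p = 0.032). With the clusters that had H2-Eb1 among their leading genes added to macrophages it was -0.97 (edgeR adjusted p = 0.020). Of the 14 settings 3 called it, with adjusted p from 0.0018 to 0.69. Dendritic-like cells stood at 130, 47.5 and 151 (0.59 ± 0.33, edgeR adjusted p = 0.23), with 188 in the Mgl2-led and 26.2 in the Xcr1-led cluster. Over 12 settings this log2 fold change ran from -0.10 to 2.61, and it was called with doublets kept (2.23, edgeR adjusted p = 0.0010) and with a coarser second round of clustering (2.61, edgeR adjusted p = 5.7e-04). B lineage-like cells of the medium sample stood at 25.6 (log2 fold change 2.06) and T cell-like cells of that sample at 17.6 (8.42 to 32.3).

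Tlr1, the partner of Tlr2, had its highest mean level in border or perivascular macrophage-like cells, at 48.5, 30.8 and 104 CPM in the early, medium and large samples, a range that overlapped with that of microglia-like cells. It was at 31.5, 23.5 and 50.1 CPM in microglia-like and at 14.3, 40 and 45.5 in macrophage or monocyte-like cells, with overlapping ranges (log2 fold change -0.19 ± 0.43, edgeR adjusted p = 0.83). Against dendritic-like cells, at 24.9, 2.64 and 7.96, the log2 fold change was 1.64 ± 0.65 (edgeR adjusted p = 0.069). It ran from 0.47 to 3.47 over 12 settings, of which 3 called it, with the lowest edgeR adjusted p (0.015) when the early sample was left out. Tlr4 was at 24.4, 26.1 and 20.3 in microglia-like cells and at 0, 19.4 and 10.0 in macrophage or monocyte-like cells, where the early sum of 59 cells held no UMI. None of the 3 class comparisons of Tlr4 passed the threshold, with edgeR adjusted p of 0.43 against macrophages and 0.17 against dendritic cells. Alternative settings called it in 0 of 14 against macrophages, in 3 of 12 against dendritic cells (lowest edgeR adjusted p = 0.0061) and in 5 of 11 against the B lineage. Myd88, the shared adaptor, was at 83.2, 60.6 and 85.3 in microglia-like and at 108, 72.0 and 60 in macrophage or monocyte-like cells, a log2 fold change of 0.01 ± 0.33 (edgeR adjusted p = 0.99). It was 34.9, 52.8 and 119 in dendritic-like cells (0.27 ± 0.37, edgeR adjusted p = 0.66) and 18.1 in B lineage-like cells of the medium sample (log2 fold change 1.51). Myd88 overlaps Slc22a14 on its own strand and Acaa1a on the other, so its counts are uncertain to that extent.

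**Figure D3:**
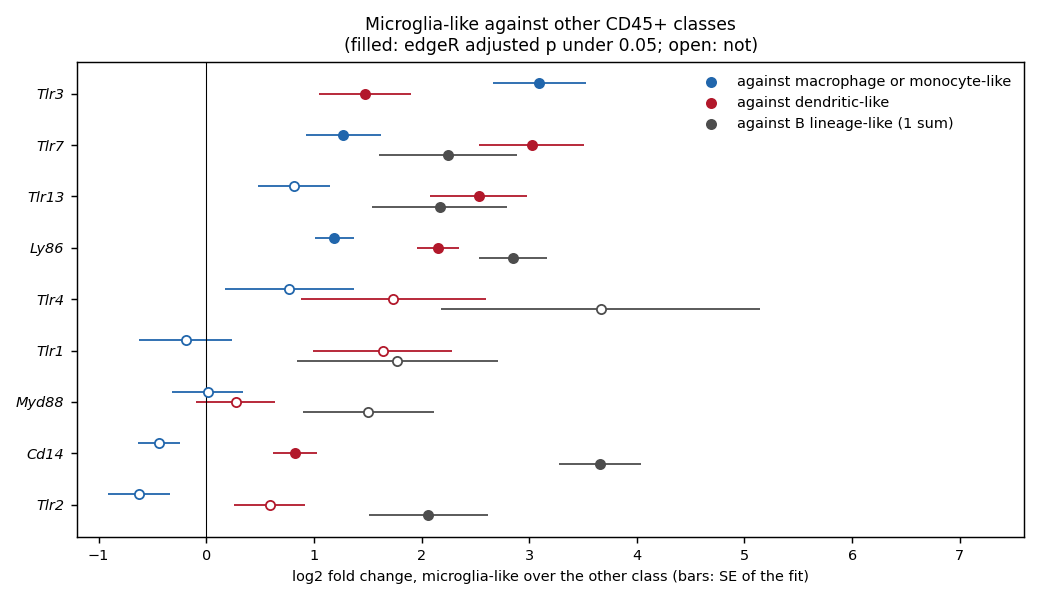
Log2 fold change of each tested member in microglia-like cells over 3 other classes of the CD45+ sort, with bars for the SE of the edgeR fit and filled points for adjusted p under 0.05, those of the B lineage (1 sum, of the medium sample) resting on the spread of the other classes. Tlr3 and Ly86 lie right of 0 in each comparison drawn, Tlr2 and Cd14 lie left of 0 against macrophages with open points, and Tlr3 against the B lineage is not drawn because that sum held no Tlr3 UMI.

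Other genes of the pathway, a list of 34, were compared in the same fit. Against macrophage or monocyte-like cells, 4 of 29 tested genes were higher in microglia-like cells and 2 lower, against 8.55% and 9.67% of all genes, with a median log2 fold change of 0.30 against 0.05 over all genes. The called shares of the list were thus close to those of all genes. Tnfaip3, an inhibitor of NF-kB signaling, was higher by 1.39 ± 0.31 (edgeR adjusted p = 0.0078). Cd180, the receptor that binds the Ly86 product, was higher by 1.25 ± 0.34 (edgeR adjusted p = 0.0092). Its level was 86.2, 132 and 121 CPM in microglia-like and 50.2, 54.9 and 38.2 in macrophage or monocyte-like cells. Irf7, a transcription factor induced by interferon, had the larger fall (-5.61 ± 0.66, edgeR adjusted p = 1.2e-05). It stood at 1.78, 5.87 and 0.496 CPM in microglia-like cells and at 265, 135 and 4.55 in macrophage or monocyte-like cells, so the macrophage level was low in the large sample. Rela, which encodes a subunit of NF-kB, was higher by 1.07 ± 0.31 (edgeR adjusted p = 0.014). Cd36, a scavenger receptor and co-receptor of Tlr2, was the other gene that was lower (-4.54 ± 0.64, edgeR adjusted p = 7.9e-04).

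Against dendritic-like cells, 5 of 29 genes of the list were higher in microglia-like cells and 4 lower, against 11.2% and 11.1% of all genes (median 0.84, against 0.14 over all genes), again close to the background. Unc93b1, the chaperone that brings endosomal Toll-like receptors to their compartment, was higher by 1.13 ± 0.20 (edgeR adjusted p = 8.1e-05). Tlr6, which pairs with Tlr2, was higher by 3.54 ± 0.82 (edgeR adjusted p = 0.0016), and the kinase gene Irak2 by 1.82 ± 0.44 (edgeR adjusted p = 0.0026). Tlr11, a mouse receptor for profilin and flagellin, was lower in microglia-like cells. It held 5, 10 and 1 UMIs in the early, medium and large dendritic-like cells and 4, 0 and 0 UMIs in the microglia-like cells, which were many times more numerous (edgeR adjusted p = 4.8e-04). Irf7 (-4.80 ± 0.71) and Cd36 (-3.79 ± 0.70) were again lower in microglia, although both comparisons share the microglia-like sums. Against the B lineage 10 of 29 were higher and 1 lower, against 7.82% and 7.03% of all genes (median 1.47, against 0.12). These counts rest on the 1 B lineage sum. Most cells of that sum were led by plasma cell genes and the others by genes of B cell precursors, which bears on all values against it. Among the genes called there, Tlr12 (3.96), Cd180 (3.06) and Unc93b1 (2.32) had the largest fitted log2 fold changes. The chaperone gene Hsp90b1 stood at -1.54.

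Levels of the members also varied among the 7 clusters of microglia-like CD45+ cells. The cluster led by Tnf, an inflammatory cytokine gene, and Gpr84 stood at 212 (199 to 226) CPM for Tlr2 and at 1303 (1270 to 1337) for Cd14. The cluster led by the heat shock genes Hspa1b and Hspa1a stood at 90.0 (76.2 to 105) and 461 (429 to 495). Between the same clusters Tlr4 ran the other way, at 15.2 (11.8 to 19.4) and 30.2 (22.5 to 39.7). Ly86 ranged from 1744 to 2378, and Tlr7 from 98.3 to 152. These clusters come from the same cells, so the intervals describe counting error and no test was made.

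Microglia-like cells were also compared across stages. With 1 tumor sample per stage no test was possible, and ratios are given with exact 95% counting intervals. Among members with at least 10 UMIs in the samples compared, 0 of 9 were past 2-fold between the medium and early samples, 1 of 10 between large and early (Tlr9, on 4 and 6 UMIs) and 1 of 9 between large and medium (Tlr1, higher by 1.08, interval 0.53 to 1.69). Among all genes with that many UMIs the shares were 13.4%, 10.9% and 12.9%, so the counts of members were close to the background and are no result about the members. Ly86 was higher in the medium than the early sample by 0.56 on the log2 scale (0.51 to 0.61), and by 0.47 and 0.52 within sequencing runs 2 and 3. In T cell-like cells, which should lack the gene, Ly86 was also higher in the medium sample, by 1.65 (1.12 to 2.25, from 75.8 to 240 CPM), and the part of RNA from other cells in the Ly86 ratios was not tested. Tlr1 was higher in the large than the early sample by 0.67 (0.32 to 1.00), by 1.02 and 0.50 within those runs. Tlr7 was lower by -0.45 (-0.67 to -0.24) and Cd14 by -0.30 (-0.37 to -0.22) in the large than the early sample. Within runs 2 and 3 these were -0.29 and -0.58 for Tlr7, and -0.52 and -0.14 for Cd14. The clusters of the class also differed in share between stages. The cluster led by Tmem119 and P2ry12 held 15.5%, 4.52% and 36.3% of the microglia-like cells of the early, medium and large samples. The Tnf- and Gpr84-led cluster held 35.3%, 31.7% and 24.9%. A P2ry12- and P2ry13-led cluster, with Tmem119 also among its leading genes, held 809, 216 and 118 of the 4084, 819 and 996 cells. Its share thus moved the other way from that of the Tmem119- and P2ry12-led cluster. Within the Tnf- and Gpr84-led cluster, Cd14 stood at 1329 CPM in the early and 1182 in the large sample, and Tlr7 at 134 and 86.9. Within the Tmem119- and P2ry12-led cluster, Cd14 stood at 1044 and 745, and Tlr7 at 122 and 105. The part of the cluster shares in the stage ratios was not tested. Tlr7 moved to -0.23 when 1 of the large libraries was left out, and its interval (-0.53 to 0.05) then included 0. Run 1 held 1 and 14 microglia-like cells in the large libraries, too few for a ratio. Tlr13 was level, at -0.02 (-0.24 to 0.18) for medium over early and 0.02 (-0.17 to 0.20) for large over early.

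**Figure D4:**
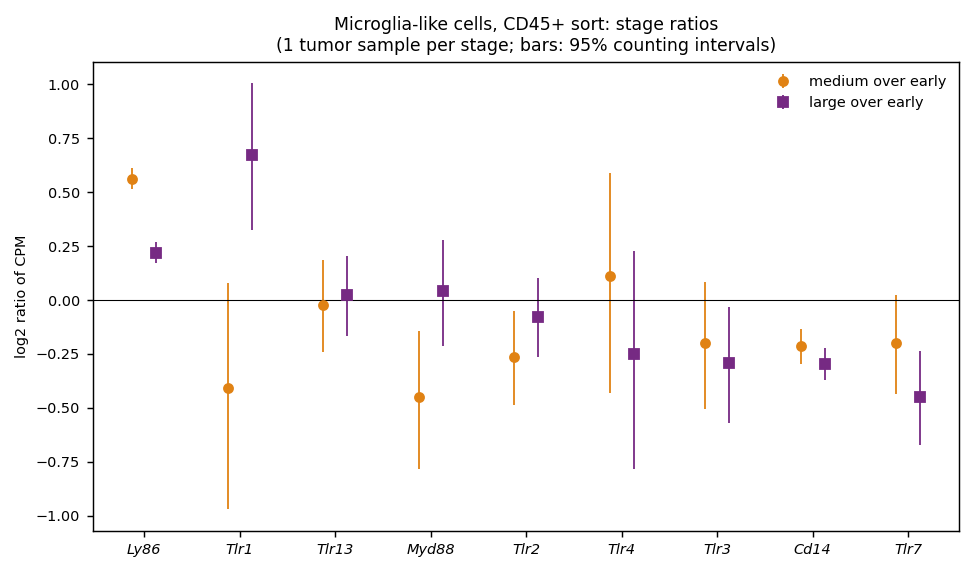
Log2 ratios of CPM in CD45+ microglia-like cells, medium over early and large over early, for the 9 members other than Tlr9, with bars for exact 95% counting intervals and 1 tumor sample per stage. Ly86 lies above 0 in both ratios and Cd14 below 0 in both, while the intervals of Tlr13 and Tlr4 include 0.

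Macrophage or monocyte-like cells were numerous enough for a ratio only in the medium and large samples, where different clusters hold most of the class. From medium to large, Tlr2 was lower by -0.83 (-1.12 to -0.55) and Cd14 by -0.51 (-0.63 to -0.38), while Tlr7 was higher by 0.84 (0.16 to 1.58) and Tlr13 by 0.54 (0.07 to 1.03). Of 9 members with at least 10 UMIs, 0 were past 2-fold, against 22.8% of all genes. The Cxcl9-led cluster of the medium sample stood at 289 CPM for Tlr2 and 23.2 for Tlr7, and the Rnase2a- and Arg1-led cluster of the large sample at 173 and 52.3. In border or perivascular macrophage-like cells, Cd14 was lower by -0.74 (-0.87 to -0.61) and Ly86 higher by 0.64 (0.45 to 0.83) in the medium than the early sample, the contrast in which Ly86 was also higher in T cell-like cells.

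Genes with the most similar pattern were found by Pearson correlation of log2(CPM + 10) over 26 sums of class and tumor sample in the CD45+ sort, among 15476 genes. The sums share libraries and free RNA, and the values are descriptive. Ly86 was closest to the cathepsin gene Ctss (r = 0.967), to Unc93b1 (0.960) and to Ctsz (0.927). Cd14 was closest to the Fc receptor chain gene Fcer1g (0.957), Nfe2l2 (0.927) and Ccrl2 (0.911). Tlr2 was closest to Clec4a2 (0.899), Il1b (0.899) and Ccrl2 (0.895), which it shared with Cd14. Tlr7 and Tlr13 shared Lyn (0.839 and 0.860) and Cd300c2 (0.817 and 0.858), with Sat1 (0.864) first for Tlr7 and Vsir (0.880) first for Tlr13. Tlr1 was closest to Ly96 (0.880), the co-receptor of Tlr4, to Cp (0.852) and to Adgre1 (0.849). The nearest genes of Myd88 were Tm6sf1 (0.878), Fam49b (0.842) and Tnfrsf1a (0.787). Tlr4 was closest to Ssh2 (0.814), Gm38843 (0.808) and Slc40a1 (0.787). Tlr3 had the weakest neighbors, Frmd4a (0.745), Gng10 (0.743) and Pdia5 (0.731).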

How the data were processed

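The authors deposited raw UMI counts, whole numbers for each gene in each cell. They mapped reads with RapMap in bcbio-nextgen to the GRCm38 transcriptome with transgenes added and called cells against empty droplets. Their pipeline also removed ambient RNA and doublets (scDblFinder), and whether the deposited counts come from before or after these steps is not stated. Stage and sort of each library came from the text annotation that the authors deposited (unit: other). Of 20811 cells, 17894 had at least 500 UMIs and 500 genes and at most 20% mitochondrial UMIs. Scrublet marked 113 (0.635%), leaving 17781. Cells were clustered in 2 rounds (scanpy 1.11.5, leidenalg 0.10.2) on 2000 variable genes without members or pathway genes, giving 50 clusters. A cluster was called X-like where at least 3 markers of a class were 2-fold above the other cells and in 10% of its cells, and 12 clusters (3011 cells) stayed unnamed. The clustering was chosen after 5 settings had been looked at, for separate dendritic and monocyte clusters; members had been seen once in sub-clusters of the plasma cell cluster. Summed counts were tested with edgeR 4.0.16 (quasi-likelihood, TMM, two-sided, Benjamini-Hochberg over all genes, threshold 0.05), with tumor sample as a block and sums of under 20 cells left out. The block came from the shared tumor samples, and deviations of same-sample sums correlated at 0.280 to 0.384 between sorts and 0.0738 to 0.271 between classes. The B cell-like class was planned per tumor sample. As only the medium sample held enough cells, B cells and plasma cells were joined into 1 sum. Tests were checked on simulated data. The 3 tumor samples are the only replicates. The named genes are all members, the 3 largest rises and falls of pathway genes per class comparison, and the 3 genes most like each member. Members and lists were chosen with earlier results of these data known. Alternatives were another normalization (none), DESeq2 1.42.0, no filter on low counts, no block, each sample left out, doublets kept, classes from markers alone (at least 2 marker UMIs), only 2 classes in the fit, and others. GRCm38 coordinates are from GENCODE M21 and promoters from RefSeq. One further allele of the mice is not reported here.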

Additional observations from a re-analysis of the deposited data

How the results depend on the processing

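Between sorts, 9 members were called under each of 9 alternatives, but without a filter on low counts these included Tlr9 (4.27, edgeR adjusted p = 0.0070) and not Ly86 (4.84, edgeR adjusted p = 0.0503). Against macrophages, 3 members were called, with 2 to 6 when 1 tumor sample was left out and 3 without the replicate block. With either a coarser second round or a single round of clustering (both chosen after seeing the data), 5 were called. Genes called against macrophages are given below only for the setting without the medium sample, so these counts are no result about the members. Against dendritic cells, 5 were called, with 3 to 7 when 1 sample was left out, 4 without the replicate block and 1 with classes from markers alone. Against the B lineage, 3 were called with classes from markers alone, where each sample had a sum, and leaving out the medium sample removes the class. Genes called against dendritic cells and the B lineage are given below for only some settings, so these counts are no result about the members either. Without the block, Cd14 was not called against dendritic cells (0.75, edgeR adjusted p = 0.092). No other call on a member changed outside the B lineage comparison, where Myd88 stood at 1.66. With DESeq2, Tlr7 (2.11) and Tlr13 (2.06) were not called against the B lineage. Genes called fell from 2180 to 803 against macrophages and from 2660 to 1225 against dendritic cells without the medium sample. Against dendritic cells they were also 533 with markers alone, 1565 with doublets kept and 1595 with the coarser round. Against the B lineage they were 1777, and 881 with markers alone or 2827 with a single round, which gave no dendritic class. Of 780 alternative stage ratios, 731 stayed within the counting interval and 47 moved past it. In the other 2, a ratio whose interval excluded 0 changed sign. These were Tlr2 in microglia, medium over early (0.043 with markers alone), and Myd88, large over medium (-0.066 within run 3). Ratios whose interval included 0 also changed sign in some settings and are not among these 2. An example is Tlr3 in microglia, large over medium (-0.094, and 0.444 within run 3). The cause was not tested. Macrophage ratios against the early sample were not run, since that class held 59 cells.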
